A study of Homo sapiens with 15 samples.

Results

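Melanocyte identity genes, and genes that mark its loss, were followed in A2058 cells, an established human malignant melanoma line. The 10 genes comprised 7 of the pigment lineage (MITF, SOX10, PMEL, MLANA, TYR, DCT and TYRP1) and 3 genes known from undifferentiated melanoma cells (AXL, NGFR and EGFR). They were found by the RefSeq accession that the array gives for each probe, which gave 18 of 58201 probes and all 10 genes. Expression was measured on 15 single-dye arrays, 3 each for cells exposed for 8 hours to 3 µM NP, to DMSO as its vehicle, to 5000 µM metformin (MET), to 50 µM phenformin (PHEN), or to water (W) as the vehicle of both biguanides. The records of the arrays name NP neopetasin, whereas the paper on these data describes petasin at the same dose and time in the same line. Every group came from this one cell line in culture, and the 3 replicates were described as independent experiments. The question was whether these genes were expressed in A2058 cells and whether the compounds, which are inhibitors of mitochondrial complex I, changed them within the treatment time.

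MITF is the transcription factor that controls melanocyte differentiation, and its M isoform is the one used in melanocytes. SOX10, a neural crest factor, acts upstream of MITF, and MITF drives the genes of pigment synthesis through E-box motifs such as CATGTG in their promoters. Melanoma cells can leave this program, with loss of pigment genes and, in some states, of MITF or SOX10. Receptors such as AXL, NGFR or EGFR can be gained, depending on the state.

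The promoters below are shown because they carry, or lack, the motifs through which this program is known to run, and because 3 of these genes later varied together across arrays. They are the 250 bases before the transcript start in RefSeq on GRCh38.p14, written 5′ to 3′ on the strand of the gene, and capitals mark CATGTG, also where it lies on the opposite strand as CACATG, and the cAMP response element TGACGTCA. TYR lies at chr11:89177625-89177874, TYRP1 at chr9:12693135-12693384, MLANA at chr9:5890639-5890888 and the most downstream of the 3 start sites of MITF at chr3:69936342-69936591, all on the plus strand.
TYR: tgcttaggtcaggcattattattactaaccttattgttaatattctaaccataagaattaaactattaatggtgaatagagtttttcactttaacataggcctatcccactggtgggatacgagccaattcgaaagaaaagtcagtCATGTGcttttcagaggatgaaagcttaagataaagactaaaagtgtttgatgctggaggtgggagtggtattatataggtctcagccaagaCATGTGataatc
TYRP1: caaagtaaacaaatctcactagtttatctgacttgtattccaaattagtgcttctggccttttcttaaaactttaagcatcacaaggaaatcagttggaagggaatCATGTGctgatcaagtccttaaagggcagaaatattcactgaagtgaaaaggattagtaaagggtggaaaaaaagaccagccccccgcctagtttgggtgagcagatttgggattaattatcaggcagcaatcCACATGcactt
MLANA: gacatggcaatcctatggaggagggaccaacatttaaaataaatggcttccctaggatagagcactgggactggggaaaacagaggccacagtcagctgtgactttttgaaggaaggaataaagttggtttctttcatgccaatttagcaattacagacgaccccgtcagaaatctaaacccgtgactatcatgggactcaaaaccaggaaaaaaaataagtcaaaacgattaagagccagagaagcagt
MITF: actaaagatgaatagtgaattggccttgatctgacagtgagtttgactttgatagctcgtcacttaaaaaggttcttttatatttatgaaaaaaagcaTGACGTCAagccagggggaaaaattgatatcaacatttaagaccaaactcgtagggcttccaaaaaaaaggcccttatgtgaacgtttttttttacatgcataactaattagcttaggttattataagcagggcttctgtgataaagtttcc
In TYR the motif CATGTG began 104 and 12 bases before the start. In TYRP1 it began 144 bases before the start, and its reverse form CACATG began 11 bases before it. The window of MLANA held neither CATGTG nor CACGTG on either strand, and that of MITF held TGACGTCA 152 bases before the start. Among 35116 promoter windows of the same length, 9.42% held CATGTG on either strand, 6.34% held CACGTG and 1.65% held TGACGTCA. Promoters were found for 7 of the 10 genes, with 12 start sites, of which 5 held CATGTG, 0 held CACGTG and 1 held TGACGTCA. The windows with CATGTG were 1 each of TYR, TYRP1, DCT, EGFR and AXL, so the motif was not confined to pigment genes. PMEL, SOX10 and NGFR were not matched.

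By the detection flag that the scanner software sets for each spot, between 25798 and 45005 of 58201 probes per array were well above background, with medians of 28461 for DMSO, 27236 for NP, 36838 for W, 37920 for MET and 34603 for PHEN. The DMSO and NP arrays lay on 2 slides and the W, MET and PHEN arrays on the other 2, so that vehicle and slides cannot be told apart. Replicate 3 of DMSO and of NP shared a slide on which the 75th percentile of the log2 intensity was 7.17 and 7.18, against 7.79 to 8.10 on the other 13 arrays. The paper on these data reports ATF4 targets as raised, and 6 of them were listed here with earlier results known, so they are no independent test. All 6 were higher in all 3 pairs with each compound, beside 14.3% (NP), 22.2% (MET) and 12.2% (PHEN) of all features. Their log2 fold changes were 1.01 to 1.83 for NP, 0.54 to 2.14 for MET and 0.63 to 2.40 for PHEN. Limma called 3, 0 and 4 of them, beside 0.0373%, 0% and 0.0261% of all features. In DMSO against W, with no compound, 3 of the 6 were also called higher, namely ASNS (1.57), CHAC1 (1.16) and NUPR1 (1.12). Of all features, 10.6% were called there in either direction. Among 17 markers of keratinocytes, epithelium, blood, endothelium and fibroblasts, 7 were well above background on all 15 arrays, and KRT5, KRT1, CDH1, EPCAM and COL1A2 were so on none. The log2 of the summed level of the 9 tested markers ranged from 7.09 to 7.21 in DMSO, 7.13 to 7.18 in NP, 6.90 to 7.40 in W, 7.07 to 7.33 in MET and 7.21 to 7.32 in PHEN.

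A2058 cells carried RNA of both pigment lineage genes and genes of the undifferentiated state. In RNA from a whole culture, fewer expressing cells and less RNA per cell cannot be told apart. The level of a probe is given as the log2 intensity minus that of the 75th percentile of its array, so that a probe above 0 is brighter than that percentile, and levels of different probes are not set against each other. The tested probes of MITF, SOX10, PMEL, MLANA, DCT, TYRP1, AXL and NGFR were well above background on all 15 arrays. That of TYR was above background on 13 arrays and that of EGFR on 4. MITF, SOX10, PMEL, DCT, AXL and NGFR lay above the 75th percentile on every array, whereas TYR, TYRP1 and EGFR lay below it on every array and MLANA on 13 of 15. All 10 genes thus had a probe that passed the filter, which asked for detection on every array of some group, as did 15 of the 18 probes, but EGFR passed only through the water arrays.

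No change of these 10 genes was called with any of the 3 compounds. A gene was called where limma's test gave an adjusted p of at most 0.05 over all 26823 features and a change of at least 1.5-fold. In NP against DMSO this held for 0 of 10 genes and for 0.0373% of all features. In MET against W it held for 0 genes and for 0% of all features, and in PHEN against W for 0 genes and 0.0261% of all features. At an unadjusted limma p of at most 0.05 the count was also 0 of 10 genes in each of the 3 comparisons, against 4.69%, 2.46% and 2.35% of all features. The median log2 fold change of the 7 pigment lineage genes was -0.11 with NP, -0.06 with MET and -0.01 with PHEN, beside medians over all features of -0.01, 0.00 and -0.03. The 95% interval lay within 1.5-fold in both directions for 5 genes with NP (SOX10, PMEL, DCT, AXL and NGFR) and for these 5 and MITF with MET and with PHEN. For MLANA, TYR and TYRP1 the interval reached beyond 1.5-fold in every comparison, and EGFR was at background on too many arrays for an interval. These intervals depend on the block, which runs across both vehicles, whereas same-numbered arrays deviated together only within a compound and its vehicle. With the replicate number as a block of its own in each pair of slides, an alternative chosen after seeing the data, the interval lay within 1.5-fold for 7 genes with NP, 8 with MET and 9 with PHEN. MLANA was then inside in each comparison, TYRP1 with MET and with PHEN, and TYR with PHEN. MET and PHEN were compared with the same 3 water arrays, and the doses of the 3 compounds differ.

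**Figure D1:**
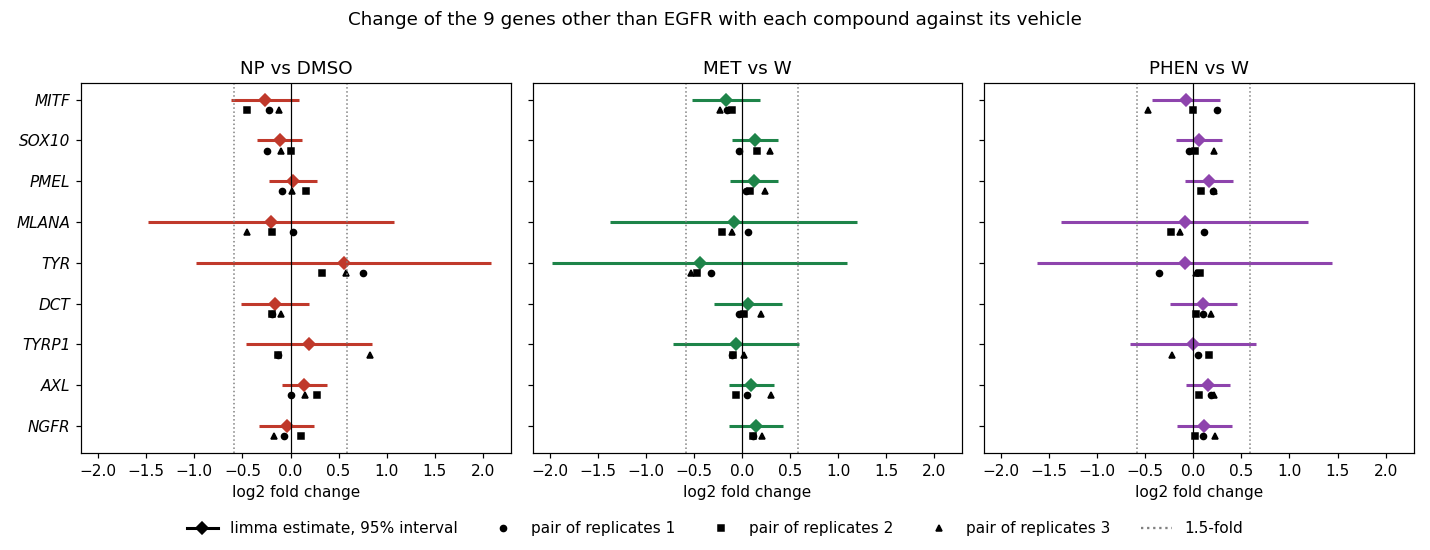
Log2 fold change (x axis) of the 9 genes other than EGFR (y axis) in NP against DMSO, MET against W and PHEN against W. Diamonds with bars are limma estimates with 95% intervals, small black symbols the differences within the 3 pairs of equal replicate number, and dotted lines 1.5-fold. Every interval includes 0, and those of MLANA and TYR are the widest.

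MITF, the master regulator of the lineage, differed from its vehicle by at most 0.27 with each compound on the tested probe, and was lower with NP on each of its 3 probes. With the tested probe its level was 4.80, 4.67 and 5.06 in DMSO, 4.57, 4.22 and 4.94 in NP, 4.18, 4.34 and 4.70 in W, 4.02, 4.24 and 4.47 in MET, and 4.42, 4.34 and 4.23 in PHEN. In order of the means, DMSO (4.84 ± 0.20, SD, n = 3) came before NP (4.58 ± 0.36), W (4.41 ± 0.27), PHEN (4.33 ± 0.10) and MET (4.24 ± 0.22), and neighbouring groups overlapped. For NP against DMSO the log2 fold change was -0.27 (SE 0.16, 95% interval -0.62 to 0.09, limma adjusted p = 1.00), and the difference was below 0 in 3 of 3 pairs (-0.23, -0.45 and -0.13). The other 2 probes of MITF gave -0.27 and -0.29, also below 0 in 3 of 3 pairs, and on the first of these, A_23_P426663, the NP arrays (3.25, 2.86 and 3.14) all lay below the DMSO arrays (3.49, 3.30 and 3.27). All 3 probes were designed on the same transcript of MITF and were read on the same arrays, so they are not separate replicates. Which isoforms of MITF these probes detect, the M isoform included, was not tested. Of all features, 18.8% were lower in all 3 NP pairs and 3.4% had all NP arrays below all DMSO arrays.

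With MET the tested probe of MITF was lower in 3 of 3 pairs (-0.16, -0.11 and -0.23; log2 fold change -0.16, SE 0.16, limma adjusted p = 1.00), a direction shared by 20.2% of all features. The other 2 probes gave -0.00 and 0.02. With PHEN the probes gave -0.08, 0.02 and 0.07, and the pairs of the tested probe ran from -0.47 to 0.24. The probes of MITF therefore had the same sign with NP and not with either biguanide.

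**Figure D2:**
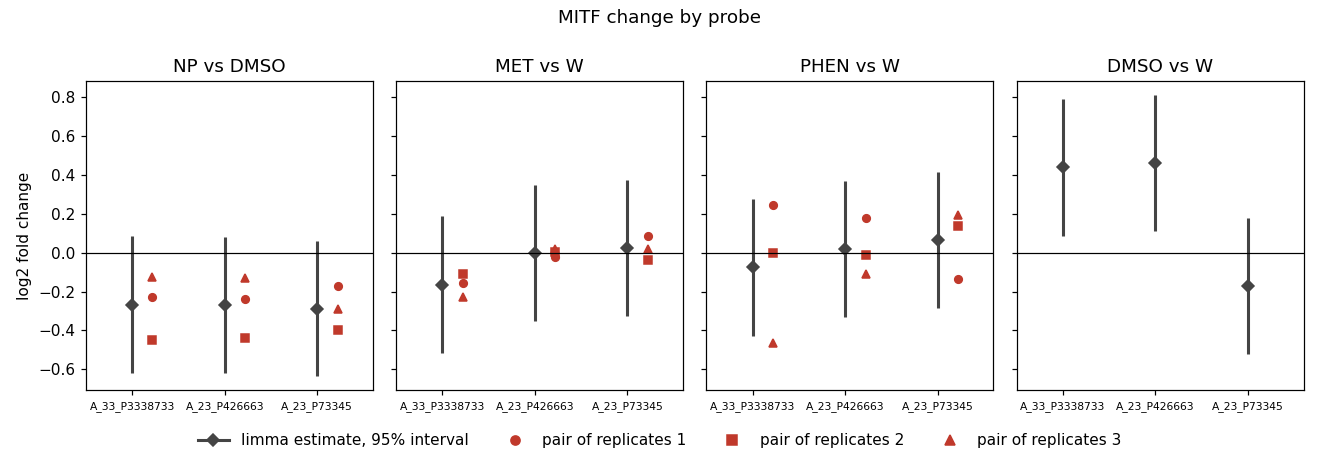
Log2 fold change of MITF (y axis) for its 3 probes (x axis) in each compound against its vehicle and in DMSO against W. Diamonds with bars are limma estimates with 95% intervals and red symbols the differences within pairs of equal replicate number, which are left out of DMSO against W. With NP all 3 probes lie between -0.29 and -0.27, and in DMSO against W they lie at 0.44, 0.46 and -0.17.

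SOX10, the neural crest factor upstream of MITF, showed a narrow spread and no called change with a compound. It was 3.53, 3.27 and 3.53 in DMSO, 3.28, 3.27 and 3.43 in NP, 3.95, 3.93 and 3.78 in W, 3.91, 4.09 and 4.07 in MET, and 3.90, 3.95 and 4.00 in PHEN. The NP and DMSO arrays overlapped, as did the biguanide and water arrays. Its log2 fold change was -0.11 with NP (SE 0.11, 95% interval -0.35 to 0.12), 0.14 with MET (-0.10 to 0.37) and 0.06 with PHEN (-0.18 to 0.30), with a limma adjusted p of 1.00 in each. In order of the means, MET (4.02 ± 0.09), PHEN (3.95 ± 0.05) and W (3.89 ± 0.09) overlapped one another and all lay above DMSO (3.44 ± 0.15) and NP (3.33 ± 0.09).

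PMEL encodes the protein of the fibrils on which melanin is laid down in the melanosome, and DCT encodes dopachrome tautomerase, an enzyme of eumelanin synthesis. PMEL was 4.16, 4.53 and 4.28 in DMSO and 4.08, 4.70 and 4.29 in NP. It was 4.24, 4.42 and 4.21 in W, 4.28, 4.51 and 4.45 in MET, and 4.44, 4.49 and 4.43 in PHEN. The PHEN arrays thus all lay above the water arrays, as did those of 3.82% of all features, with a log2 fold change of 0.16 (SE 0.11, 95% interval -0.09 to 0.41, limma adjusted p = 1.00). With NP the log2 fold change of PMEL was 0.03 (-0.22 to 0.28) and with MET 0.12 (-0.13 to 0.37). The group means, from 4.29 in W to 4.45 in PHEN, were in the order PHEN, MET, NP, DMSO and W, and neighbouring groups overlapped.

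DCT was 3.04, 2.72 and 3.15 in DMSO, 2.85, 2.52 and 3.05 in NP, 2.99, 3.10 and 2.81 in W, 2.96, 3.12 and 3.00 in MET, and 3.09, 3.13 and 2.99 in PHEN. All groups overlapped, with means from 2.81 in NP to 3.07 in PHEN, in the order PHEN, MET, DMSO, W and NP. With NP the gene was lower in 3 of 3 pairs by a similar amount (-0.19, -0.19 and -0.10), and the log2 fold change was -0.16 (SE 0.16, 95% interval -0.51 to 0.19, limma adjusted p = 1.00). With the replicate number as a block of its own in each pair of slides, the interval for DCT narrowed to -0.31 to -0.01 and the limma adjusted p was 0.404. For the biguanides the log2 fold change of DCT was 0.06 with MET and 0.10 with PHEN.

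MLANA, TYR and TYRP1 varied far more between the replicates of DMSO and NP than between treatments. MLANA encodes a melanosomal protein that T cells recognise in melanoma, TYR encodes tyrosinase, the rate-limiting enzyme of melanin synthesis, and TYRP1 encodes a tyrosinase-related enzyme. MLANA was -0.69, 0.42 and -2.15 in DMSO and -0.66, 0.23 and -2.60 in NP, but -1.17, -0.93 and -0.89 in W, -1.11, -1.13 and -1.00 in MET, and -1.06, -1.16 and -1.03 in PHEN. Replicates 2 of DMSO and NP were the 2 highest and replicates 3 the 2 lowest of the 15 arrays, with all W, MET and PHEN arrays between. The means ran from DMSO (-0.80 ± 1.29) over W (-1.00 ± 0.15) and NP (-1.01 ± 1.44) to MET and PHEN (-1.08 ± 0.07 each), and neighbouring groups overlapped. Against the vehicle, the log2 fold change of MLANA was -0.20 with NP (SE 0.58, 95% interval -1.49 to 1.08), -0.08 with MET and -0.09 with PHEN, with a limma adjusted p of 1.00 in each. With the replicate number as a block of its own in each pair of slides, the interval with NP was -0.44 to 0.03. Its second probe gave 0.18 with NP, so the sign was not shared.

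TYR was -3.10, -2.07 and -5.51 in DMSO and -2.34, -1.74 and -4.93 in NP, where replicate 3 was not well above background in either group. It was -2.30, -2.68 and -2.63 in W, -2.62, -3.15 and -3.16 in MET, and -2.65, -2.62 and -2.61 in PHEN. NP was above DMSO in 3 of 3 pairs (0.76, 0.33 and 0.58), a direction shared by 14.3% of all features, but on a second probe the pairs were -0.66, 0.54 and 1.01. The log2 fold change of TYR with NP was 0.55 (SE 0.69, 95% interval -0.98 to 2.09, limma adjusted p = 1.00) on the tested probe and 0.30 on the second. With the replicate number as a block of its own in each pair of slides, the estimate of 0.55 had an interval of 0.26 to 0.85 and a limma adjusted p of 0.187. In order of the measured means, W (-2.54) came before PHEN (-2.63), MET (-2.98), NP (-3.01) and DMSO (-3.56), and neighbouring groups overlapped. With MET the tested probe was lower in 3 of 3 pairs (log2 fold change -0.44) and the second was not (0.15). With the block of its own in each pair of slides, the interval of the tested probe with MET was -0.74 to -0.14 and the limma adjusted p 0.451. With PHEN the probes gave -0.09 and 0.17. The remaining probe of TYR was well above background on 1 array.

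TYRP1 was -1.79, -0.90 and -2.65 in DMSO and -1.92, -1.04 and -1.83 in NP, against -1.61, -1.46 and -1.46 in W, -1.71, -1.56 and -1.45 in MET, and -1.56, -1.30 and -1.69 in PHEN. The means ran from -1.51 in W over PHEN (-1.52), MET (-1.57) and NP (-1.60) to -1.78 in DMSO, and all groups overlapped. For TYRP1 the log2 fold change was 0.19 with NP (SE 0.29, 95% interval -0.47 to 0.84), -0.06 with MET and -0.01 with PHEN, with a limma adjusted p of 1.00 in each. The NP value rested on replicate 3, whose pair differed by 0.83, and without that replicate it was -0.13.

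The 3 genes shared this pattern, which was seen after their values were known and is given without a test. Replicate 2 exceeded replicate 3 by 2.57 in DMSO and 2.82 in NP for MLANA and by 1.75 and 0.79 for TYRP1. For TYR, whose replicate 3 was not well above background, it did so by at least 1.22 and 1.88, measured against the dimmest signal called above background on that array. On their second probes the differences were 1.94 and 1.70 for MLANA, at least 0.44 and 1.31 for TYR, and at least 2.36 in DMSO and 2.46 in NP for TYRP1. In W, MET and PHEN the same differences ran from -0.13 to 0.53 over these 6 probes. Of all features, 4.74% were at least 1 higher on the log2 scale in replicate 2 than in replicate 3 of both DMSO and NP, and 2.19% were at least 1 lower. PMEL differed by 0.26 and 0.41 between these replicates, and MITF by -0.40 and -0.72 and DCT by -0.44 and -0.53. The pooled SD within groups of DMSO and NP was 1.37 for MLANA, 1.73 for TYR and 0.71 for TYRP1, against a median of 0.29 over all features, while in W, MET and PHEN it was 0.10, 0.21 and 0.15 against a median of 0.21. Across the 6 DMSO and NP arrays, MLANA and TYR correlated with an r of 0.95, and across the 9 other arrays with an r of -0.14. The SD and the r of TYR in DMSO and NP include the measured values of replicate 3, which lay at background. These 6 arrays share 2 slides and 3 experiments. Replicate 3 lay on the slide with the lower 75th percentile, but replicates 1 and 2, which share a slide, also differed, by 1.11 in DMSO and 0.89 in NP for MLANA. The part of the slide, the signal level or the cultures in this pattern was not tested.

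**Figure D3:**
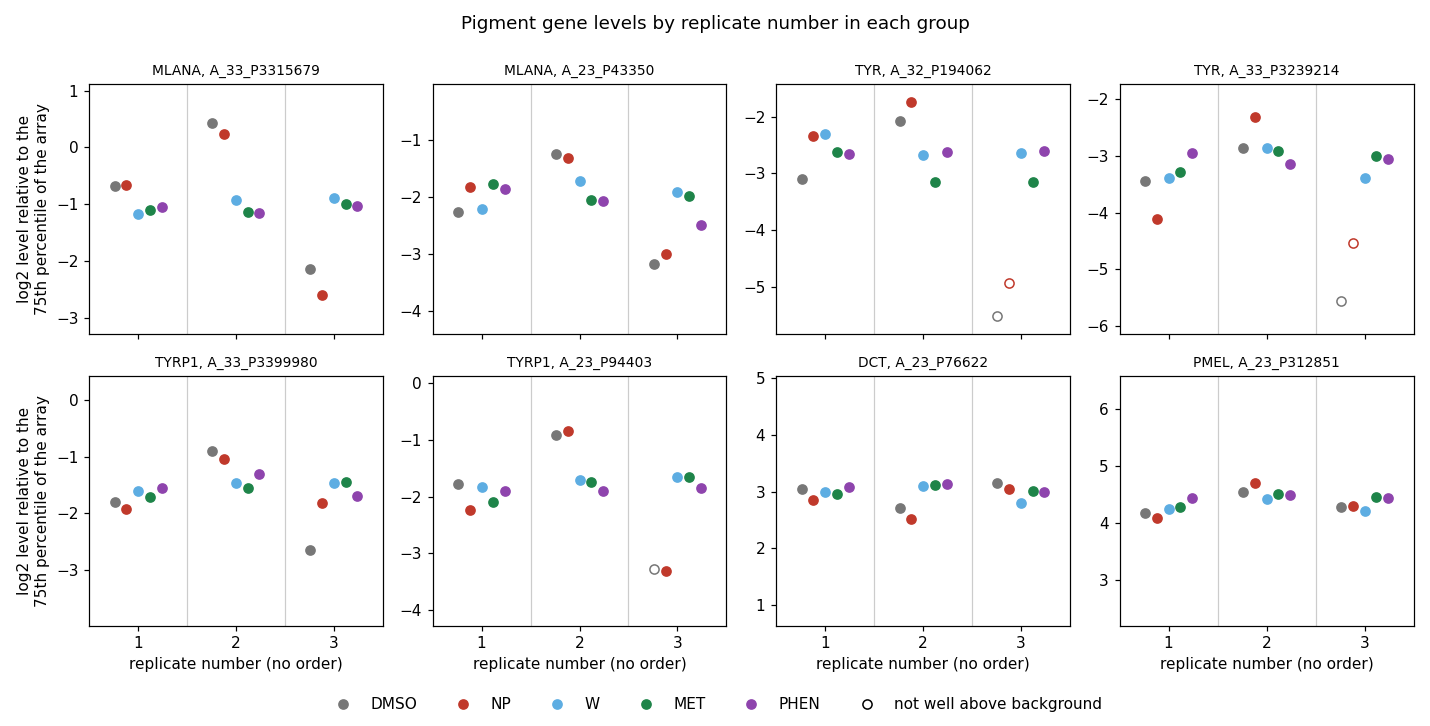
Level of 2 probes each of MLANA, TYR and TYRP1 and of the probes of DCT and PMEL (y axis, log2 intensity minus the 75th percentile of its array; each panel spans the same range) by replicate number (x axis, which has no order) in the 5 groups. Open symbols are not well above background. In DMSO and NP the 6 probes of MLANA, TYR and TYRP1 are high in replicate 2 and, but for TYRP1 A_33_P3399980 in NP, lowest in replicate 3, whereas W, MET and PHEN stay close together.

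AXL and NGFR, receptors that mark undifferentiated and neural crest-like melanoma cells, were well above background on every array, as were all pigment lineage genes but TYR. AXL, a receptor tyrosine kinase, was 4.88, 4.73 and 4.86 in DMSO, 4.88, 5.01 and 5.01 in NP, 4.77, 4.93 and 4.93 in W, 4.83, 4.87 and 5.23 in MET, and 4.95, 4.99 and 5.15 in PHEN. The NP arrays lay above the DMSO arrays, narrowly, and the PHEN arrays above the water arrays, which held for 3.01% and 3.82% of all features. The log2 fold change of AXL was 0.14 with NP (SE 0.10, 95% interval -0.09 to 0.37), 0.10 with MET (-0.13 to 0.33) and 0.15 with PHEN (-0.08 to 0.38), with a limma adjusted p of 1.00 in each. The means were in the order PHEN (5.03), MET (4.98), NP (4.97), W (4.88) and DMSO (4.82), and neighbouring groups overlapped.

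NGFR, the low-affinity nerve growth factor receptor, was 5.61, 5.21 and 5.38 in DMSO and 5.55, 5.32 and 5.20 in NP. It was 5.62, 5.80 and 5.54 in W, 5.73, 5.92 and 5.75 in MET, and 5.73, 5.82 and 5.77 in PHEN. All compounds overlapped their vehicle. The log2 fold change of NGFR was -0.04 with NP (SE 0.13, 95% interval -0.33 to 0.24), 0.15 with MET (-0.14 to 0.43) and 0.12 with PHEN (-0.17 to 0.40), with a limma adjusted p of 1.00 in each. With MET and with PHEN it was higher in 3 of 3 pairs, as were 22.2% and 12.2% of all features. The order of the means was MET (5.80), PHEN (5.77), W (5.66), DMSO (5.40) and NP (5.36), and neighbouring groups overlapped.

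EGFR, the epidermal growth factor receptor, was near or below the detection limit in A2058 cells. Of its 3 probes, that for the full-length transcript was well above background on 0 of 15 arrays. The others, designed on alternative transcripts, were so on 5 and on 4 arrays. The tested probe was -5.45, -5.80 and -4.06 in DMSO and -5.40, -5.51 and -4.55 in NP, not well above background on any of these 6 arrays, so no fold can be read from them. It was well above background at -4.09, -3.97 and -4.47 in W, at 0 of 3 arrays in MET (-4.54, -4.80 and -5.45), and at 1 of 3 in PHEN (-4.24, -5.02 and -4.57). On this probe W measured above MET (limma adjusted p = 1.00), but no MET array had it well above background. No fold can thus be read between W and MET. All MET arrays lay below all water arrays, as did those of 2.27% of all features. As the probe entered the test only through the water arrays, a lower value in the other groups was favoured by the filter. On the probe well above background on 5 arrays, replicate 2 was -1.82 in DMSO and -1.16 in NP, while the other measured arrays lay between -5.62 and -3.66 and the value of NP replicate 1 was set to missing as an outlier spot.

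Between the 2 vehicles the adjusted p was under the threshold for SOX10 alone among the 10 genes. SOX10 was lower in DMSO than in W by a log2 fold change of -0.44 (SE 0.11, 95% interval -0.68 to -0.21, limma adjusted p = 0.0222), all 3 DMSO arrays lay below all 3 water arrays, and the change was under 1.5-fold. MITF was 0.44 higher in DMSO than in W on the tested probe (SE 0.16, limma adjusted p = 0.0832), 0.46 higher on the second and -0.17 on the last. Between DMSO and W 0 of 10 genes were called, against 10.6% of all features, and the groups did not overlap for 1 of 10 genes, against 29.5%. Vehicle and slides cannot be told apart in these values. In the test of the difference between the change with NP and that with MET or with PHEN, each at its own dose, 0 of 10 genes were called by limma, as were 0% of all features, with 0 of 10 genes and 2.78% and 2.43% of all features at an unadjusted p of at most 0.05.

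For the 8 genes measured on every array, the features whose level varied most like theirs were listed by Pearson r over 15 arrays, after the mean of each pair of slides was subtracted. They were KANK1, RBIS and CILK1 for MITF (r of 0.95, 0.95 and 0.94), CIC, ATP5F1D and REEP4 for SOX10 (0.91, 0.89 and 0.88), and VGF, ZFP36 and SAA1 for PMEL (0.91, 0.91 and 0.88). For MLANA they were NLRP3, ANGPTL4 and SLAMF7 (0.98, 0.98 and 0.97), for DCT JADE2, PHLPP1 and CD81 (0.95, 0.94 and 0.93), and for TYRP1 TNFRSF11B, FMR1NB and LINC02882 (0.90 each). For AXL they were GFOD1, TNFAIP2 and FHIP1B (0.94, 0.91 and 0.89) and for NGFR ACOX3, DTNBP1 and LOC407835 (0.91, 0.91 and 0.90). Without subtraction of the means, r fell to -0.07 for MITF with RBIS and to -0.16 for SOX10 with CIC. The 2 pairs of slides also differ in vehicle, and the cause of this fall was not tested. For TYRP1 the likeness came from the DMSO and NP arrays, as r over the W, MET and PHEN arrays was 0.12, 0.49 and -0.37. These are the highest of 26627 features over few arrays that share slides and experiments.

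Other genes of the pigment program also showed no called change. Of 18 such genes 16 were tested and 13 were well above background on all 15 arrays, and 0 were called in any compound comparison. With NP their median log2 fold change was -0.05. In all 3 NP pairs 8 of 16 were lower and 0 of 16 were higher, beside 18.8% and 14.3% of all features. The counts lower in all 3 pairs were 5 of 16 with MET and 2 of 16 with PHEN, beside 20.2% and 14.8% of all features. The largest changes are given here among the 13 genes well above background on all 15 arrays. With NP they were those of MLPH, a melanosome transport protein (0.45, with pairs of 1.72, 0.10 and -0.47), CAPN3, a protease with a melanocyte form (-0.24), and MREG, a melanosome regulator (-0.24). The gene in this list with an unadjusted limma p of at most 0.05 with NP was SLC45A2, a melanosomal transporter. It is named here after its values were seen and was among the 8 genes lower in all 3 NP pairs. However, it was not well above background on any DMSO or NP array. With MET the largest changes were those of OCA2, a melanosomal channel protein, at -0.57 (SE 0.19, limma adjusted p = 1.00), MC1R, the melanocortin receptor, at -0.15, and RAB27A, which carries melanosomes, at -0.15. OCA2 was -0.77, -0.37 and -0.15 in W, -0.99, -1.07 and -0.94 in MET, and -0.73, -0.57 and -0.84 in PHEN. Its MET arrays all lay below its water arrays, as did those of 2.27% of all features, and it was named for the size of its change. With PHEN the largest were OCA2 (-0.28), MLPH (0.23) and ST3GAL6, a sialyltransferase (0.10). BIRC7 (-0.64), SLC24A5 (-0.52) and SLC45A2 (-0.35) measured larger changes with PHEN, but were not well above background on all 15 arrays.

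Of 21 regulators of the lineage 19 were tested and 0 were called with a compound. Their median log2 fold change was -0.02 with NP, -0.09 with MET and -0.03 with PHEN. Lower in all 3 pairs were 2 of 19 with NP, 9 of 19 with MET and 4 of 19 with PHEN. The shares of all features were 18.8%, 20.2% and 14.8%. The largest changes are again given among genes well above background on all 15 arrays. With NP they were EDNRB, the endothelin receptor of melanoblasts (-0.44), IRF4, a pigmentation factor (-0.33), and SOX2 (-0.20). With MET they were SNAI2 (-0.22), SOX9 (-0.20) and SOX2 (-0.18). With PHEN they were EDNRB (-0.40), SNAI2, a neural crest repressor (-0.34, SE 0.14, limma adjusted p = 1.00), and ERBB3, a neuregulin receptor (0.25).

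Of 29 genes of the undifferentiated state 28 were tested and 0 were called with a compound, with median log2 fold changes of -0.02, 0.02 and 0.02. JUN, a subunit of AP-1, changed by -0.43 with NP, -0.46 with MET and -0.56 with PHEN (SE 0.23, limma adjusted p = 1.00 in each). It was lower in all 3 pairs with each compound, as were 18.8% (NP), 20.2% (MET) and 14.8% (PHEN) of all features. MET and PHEN share their water arrays. Among genes well above background on all 15 arrays, the other largest changes with NP were IL6 (0.43) and CCN2, a target of YAP (0.42). They were CXCL8 (-0.46) and BIRC3 (-0.36) with MET, and CXCL8 (-0.41) and F2RL1 (-0.32) with PHEN. Between the vehicles 1 pigment gene was called (BIRC7, -1.77), 3 regulators (SOX5, -0.83; IRF4, 0.77; CREB1, 0.68) and 3 genes of the undifferentiated state (TGFBI, -0.78; PDGFRB, 0.94; TCF4, -1.01), beside 10.6% of all features. Of the 9 tested markers of other cell types, 2 were called lower in DMSO than in W. These were the keratin gene KRT14 (-0.99) and the T cell gene CD3E (-0.91), and their part in these differences was not tested. The tested probes of BIRC7, SOX5, TCF4 and CD3E were not well above background on all 15 arrays, so the sizes of their changes are uncertain.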

How the data were processed

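Total RNA of A2058 cells was hybridised by the authors to Agilent single-dye arrays, and the deposited values are background-subtracted spot intensity values from Agilent Feature Extraction (10.7.3.1 per the file headers, 9.1 per the labels), not normalized between arrays. The authors' table, used as an alternative, holds deposited log2 values scaled at the 75th percentile and floored at 4. No saturated spot was found. Outlier spots were set to missing (223 values), log2 intensity was taken minus the 75th percentile of each array, and probes were kept (32911) if every array of some group had them well above background. Accessions of 31104 of 33080 probes matched RefSeq symbols. Each gene was represented by its brightest probe, with a value on at least 8 arrays, which gave 26823 features.

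A limma model (limma 3.58.1, R 4.3.3) with 5 groups and the replicate number as a block was fitted over 15 arrays, and its two-sided p-values were adjusted over all features by Benjamini-Hochberg. The methods pair equal numbers, the series describes independent experiments, and same-numbered arrays deviated together (r of 0.24 to 0.86) within each compound and its vehicle. Tested on simulated data for NP against DMSO over 26627 features, it called 5 of 50 features changed by 0.585 on the log2 scale (1.5-fold), 29 of 50 changed by 1 and 44 of 50 changed by 2, beside 9 unchanged features. The methods describe biological replicates, each a sample of its own, and p-values measure the spread between these arrays, pooled over all 5 groups. Alternatives covered the block, slide, background, scaling, filter, probe choice, test and single replicates. Further genes were named where called, and otherwise the 3 with the largest change above background on all arrays. Normexp (offset 50) used median spot signals. Members, lists and tests were chosen with earlier results of these data known. Python 3.11.15, pandas 2.3.3, numpy 2.4.6 and matplotlib 3.10.9 were used for tables and figures.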

Additional observations from a re-analysis of the deposited data

How the results depend on the processing

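The count of the 10 genes called was 0 in each of the 4 comparisons and stayed 0 under the alternatives tried, with these exceptions. By the methods' t-test with unadjusted p it was 1 in MET against W, and after Benjamini-Hochberg adjustment 0. This was EGFR, which entered the test only through the water arrays and was well above background on 0 of 3 MET arrays. No fold can be read from it. Leaving out 1 replicate number gave 0 to 1 in DMSO against W, the 1 being EGFR without replicate 3. As 0 of 3 DMSO arrays had it well above background and it entered the test through W, no fold between DMSO and W can be read either. Without the replicate block the count was 0 in all 4 comparisons, and the block changed no call of these genes. Same-numbered arrays deviated together (r of 0.31, 0.33 and 0.65 for NP and DMSO, 0.86, 0.44 and 0.80 for MET and W, and 0.30, 0.24 and 0.40 for PHEN and W) but not across the vehicles (-0.11, -0.19 and -0.02).

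Over all features the calls moved more, from 10 in NP against DMSO to 3 without the replicate block, 63 with a slide term, 27 with normexp, 17 with quantile normalization, 214 by the methods' t-test unadjusted and 0 adjusted, 0 without the filter, 0 on the compared groups and 0 without any 1 replicate. In MET against W they moved from 0 to 2 with the slide term, 2 with normexp and 124 by the t-test unadjusted. In PHEN against W they moved from 7 to 0 without the block, 16 with the slide term, 168 and 0 by the t-test, and 0 without the filter, on the compared groups or without any 1 replicate. In DMSO against W they moved from 2843 to 1201 with normexp, 0 on the compared groups, 1462 and 3 by the t-test, 0 to 5057 without 1 replicate, and 1633 on the 19466 features above background on all arrays. The 3 alternatives that follow were chosen after seeing the data. With probes above background on all arrays, NP gave 26. With the replicate number nested in the slides, NP gave 52, MET 2 and PHEN 9. With 1 feature per probe, no count of calls moved by over 1.5 times.

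Of the fold changes of single genes, 534 kept direction and side of the threshold, 32 changed sign and 2 (EGFR, above) passed it only under an alternative. With normexp these were PMEL in NP (-0.011), TYR and TYRP1 in PHEN (0.016 and 0.0086), and, in DMSO against W, PMEL (-0.019), TYR (0.016), DCT (-0.050), TYRP1 (0.0072) and EGFR (0.11). With quantile normalization they were TYR and TYRP1 in PHEN (0.099 and 0.068) and AXL in DMSO against W (0.029). Without the filter EGFR moved to another probe (0.74 in NP and 0.70 in DMSO against W). The EGFR values in NP and in DMSO against W come from spots mostly not well above background and are no folds. With the mean of all probes they were MITF and TYR in PHEN (0.0031 and 0.039) and MLANA in DMSO against W (-0.046). Without 1 replicate number the values covered both signs. In PHEN against W they ran from -0.17 to 0.045 for TYR, -0.24 to 0.12 for MITF, -0.015 to 0.12 for SOX10 and -0.090 to 0.10 for TYRP1. In DMSO against W they ran from -0.16 to 0.20 for DCT, -0.0057 to 0.090 for PMEL, -0.39 to 0.91 for MLANA, -0.14 to 0.019 for AXL and -0.69 to 0.19 for TYRP1. In NP against DMSO they ran from -0.038 to 0.088 for PMEL, -0.13 to 0.35 for TYRP1, -0.12 to 0.023 for NGFR and -0.22 to 0.17 for EGFR. In MET against W they ran from -0.0019 to 0.11 for DCT and -0.00064 to 0.18 for AXL. The cause was not tested. The slide term in DMSO against W could not be fitted, and EGFR has no value in the authors' table, where its probe is at the floor on all arrays. Array number (3 per group) and signal near background (TYR, EGFR) limit the precision.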
